A study of Mus musculus with 8 samples.

Results

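On day 10 after bilateral common carotid artery stenosis (BCAS), RNA from the corpus callosum of mice labelled WT was compared with RNA from mice labelled TRPA1-KO. These are 2 of the 8 libraries in the series, 1 for each label, so each difference is a value with no test. Of 25239 gene symbols, the 15499 with at least 1 CPM (reads of a gene, scaled to a common library size) in either library were compared. BCAS places a microcoil on both common carotid arteries and lowers cerebral blood flow for weeks. The other 6 libraries, which give the usual spread, come from both labels after a sham operation (day 14, the same surgery without coils), on day 7 of BCAS, and on day 14 of BCAS. All mice carry the strain label C57BL/6, and the study's methods name adult males of C57BL/6J. The TRPA1-KO line is a global knockout of the cation channel TRPA1, so the loss is not limited to a cell type, and it had been backcrossed to C57BL/6J. The study's methods give 1 individual mouse for each data point, and whether the mice for RNA were perfused is not given in the sources used here.

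Astrocytes are the glial cells that feed, buffer, and wall off the tissue around them, and after injury they become reactive and fill with intermediate filaments built from GFAP and vimentin. Microglia are the resident macrophages of the brain, and they leave their homeostatic state to take up debris, release complement, and present antigen. Interferons are secreted alarm proteins. Type I interferons switch on antiviral genes through factors of the STAT and IRF families, and interferon gamma switches on GTPases and antigen presentation. In white matter the same 3 programmes often accompany damage to myelin.

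The base motifs tied to these factors are shown first. The interferon-stimulated response element (ISRE) was searched as GAAANNGAAA, and the STAT site (GAS) as TTCNNNGAA, on both strands of the RefSeq GRCm38.p6 windows from 250 bases before to 50 bases after each gene's start. The ISRE letters stand in 3.99% and the GAS letters in 9.55% of the 27025 genes with such a window. Of the 37 type I interferon-stimulated genes kept on day 10, 27 had a window, and 14 of them (51.9%) held the ISRE letters. Of 16 kept interferon gamma GTPases and partners, 12 had a window, and 10 (83.3%) held them. The ISRE letters were in 0 of 4 windows of astrocyte filament genes, and the GAS letters were in 1 of those 4, that of *Gfap*. Shown are 4 interferon genes with a large day 10 difference, *B2m* of MHC class I, and *Gfap*. Capitals mark the matches, and TTTC in capitals is the ISRE read on the other strand:
Ifit1, chr19:34640745-34640853, + strand: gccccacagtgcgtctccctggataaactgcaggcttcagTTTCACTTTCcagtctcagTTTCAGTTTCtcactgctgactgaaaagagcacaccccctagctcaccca
Bst2, chr8:71537547-71537642, - strand: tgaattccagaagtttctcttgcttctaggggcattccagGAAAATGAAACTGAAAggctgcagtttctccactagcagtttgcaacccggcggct
Gbp3, chr3:142559959-142560043, + strand: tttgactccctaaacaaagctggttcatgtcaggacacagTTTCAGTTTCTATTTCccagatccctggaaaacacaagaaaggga
Igtp, chr11:58199482-58199555, + strand: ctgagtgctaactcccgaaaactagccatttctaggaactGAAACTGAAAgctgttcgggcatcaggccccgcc
B2m, chr2:122147508-122147597, + strand: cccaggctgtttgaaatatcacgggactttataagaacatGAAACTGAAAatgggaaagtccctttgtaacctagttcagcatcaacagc
Gfap, chr11:102897194-102897242, - strand: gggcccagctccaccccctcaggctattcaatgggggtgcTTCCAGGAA
The last of these shows the GAS letters, and the other sequences show the ISRE letters. *Ifit1*, *Bst2*, and *Gbp3* each hold 2 ISRE matches. Those of *Bst2* and of *Gbp3* overlap each other, and the first match of *Bst2* also shares bases with a GAS match. A match describes the letters and is not evidence that a factor binds there.

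The labels and the tissue were checked before the results. *Trpa1* itself had 0 reads in the day 10 library labelled WT and 3 in the one labelled TRPA1-KO. Over the 4 pairs the libraries labelled WT had 0 or 1 read of *Trpa1* and those labelled TRPA1-KO had 3 to 11, which goes against the labels. Whether labels were exchanged or the targeted allele leaves exons that are still transcribed was not tested. The libraries are therefore named by label throughout, and each direction holds for the labels only. The day 10 library labelled WT was the shallowest with 7896071 reads on genes, the one labelled TRPA1-KO had 9348524, and the others had 9108162 to 12952093. A floor of 3 reads equals 0.378 and 0.320 CPM in these 2 libraries. Myelin genes were abundant, with *Mbp* at 5129 against 5478 CPM. Cortical neuron genes were abundant too (*Slc17a7*, the glutamate loader of excitatory vesicles, 1283 against 1205 CPM), and these mark grey matter outside the tract. Hemoglobin RNA differed strongly between the libraries, as described with the vessels below.

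On day 10, 211 genes (1.36%) were higher by at least 1 log2 unit of CPM + 1 in the library labelled WT and 50 (0.323%) were lower. A log2 unit is a doubling of CPM + 1, which understates the change of low genes. Since 1 pair of libraries always differs somewhere, the same count was made in the other pairs. In the sham pair 22 of 15374 genes were higher (0.143%) and 24 lower (0.156%). On day 7, 794 of 15722 were higher (5.05%) and 53 lower (0.337%). On day 14, 28 of 15345 were higher (0.182%) and 80 lower (0.521%). The day 10 pair therefore held fewer higher genes than the day 7 pair and more than the other 2. A stricter rule also asked that the day 10 difference be larger than the whole range of the other 6 libraries, and 74 genes (0.477%) passed it as higher and 32 (0.206%) as lower. The day 7 library labelled WT widens that range, and without it 215 genes of both directions passed in place of 106. The genes nearest the threshold of 1 were *Ano2*, inside at -1.001, and *Bcl2a1b*, outside at 0.999. Of the 211 higher genes, 69 belonged to the gene lists described here and 142 to none, and of the 50 lower genes 6 did. Over all 15499 genes the median difference was -0.0011, and 49.7% were higher by any amount.

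**Figure D1:**
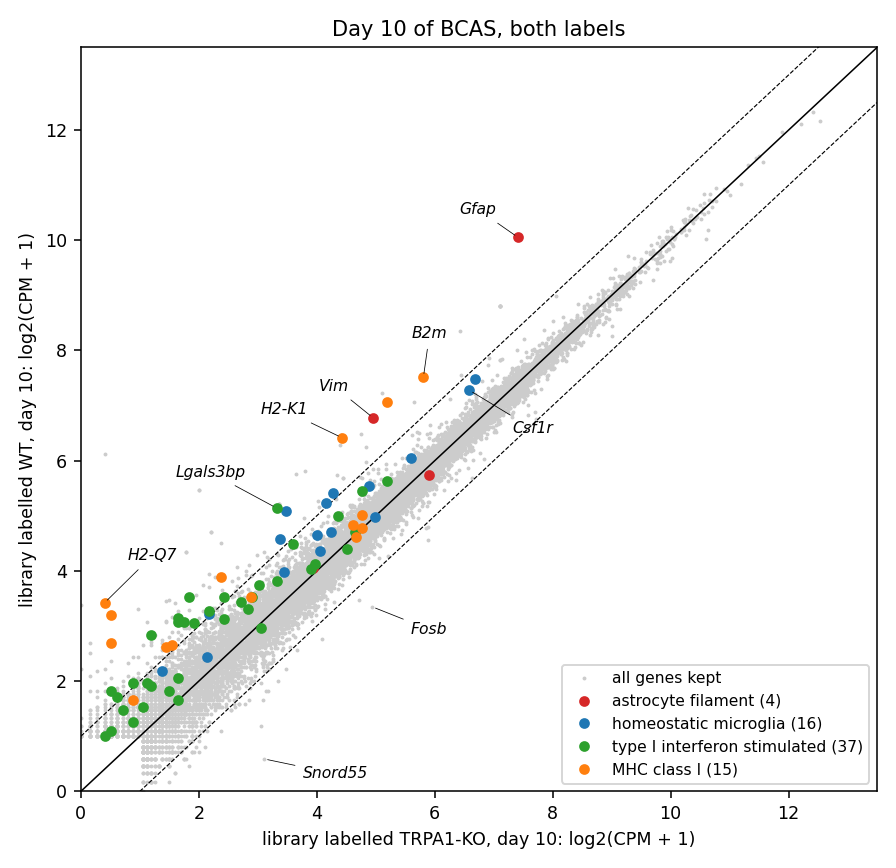
Each point is 1 of the 15499 kept genes, with log2(CPM + 1) in the day 10 library labelled TRPA1-KO on the x axis and in the one labelled WT on the y axis. The solid line marks equal values and the dashed lines a difference of 1. *Gfap*, *Vim*, *B2m*, and *H2-K1* lie above the upper dashed line, while *Fosb* and *Snord55* lie below the lower one.

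Among the astrocyte filament genes, *Gfap* and *Vim* were far higher in the library labelled WT and *Nes* and *Synm* were not. In all pairs given here, the library labelled WT comes first. *Gfap* (chr11:102887336-102897200), the main filament protein of astrocytes, stood at 200.4 and 234 CPM in the sham libraries, 1415 and 167 CPM on day 7, 1060.0 and 169 CPM on day 10, and 157 and 427 CPM on day 14. The day 10 difference was 2.64 log2 units, or 6.26-fold (95% interval 5.93 to 6.61) in CPM, where the interval is exact and covers counting error only. The value of 1060.0 CPM was the second highest of the 8, above all libraries but that of day 7 with the same label, and the value of 169 CPM lay below both shams. *Vim* (chr2:13574311-13582826), which copolymerizes with GFAP, was measured at 36.1 and 39.7 CPM in the sham libraries, 324 and 33.0 CPM on day 7, 109 and 30.0 CPM on day 10, and 30.0 and 53.6 CPM on day 14. Its day 10 difference was 1.82 log2 units, 3.62-fold (95% interval 3.16 to 4.16) in CPM, and its library order at the top was the same as that of *Gfap*. In bulk tissue, fewer cells of a type and less RNA per cell cannot be told apart. *Nes* (nestin, a filament of precursors and reactive astrocytes) differed by 0.12 log2 units (15.6 against 14.3 CPM), although the day 7 pair had differed by 1.498. *Synm* (synemin, a filament linker) was slightly lower at 52.2 against 58.7 CPM, a difference of -0.17. Thus 2 of 4 filament genes passed 1 log2 unit against 1.36% of all genes, and the list median was 0.97. None of the 4 passed the range of the other 6 libraries, and 2 did when that range was taken without WT on day 7.

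**Figure D2:**
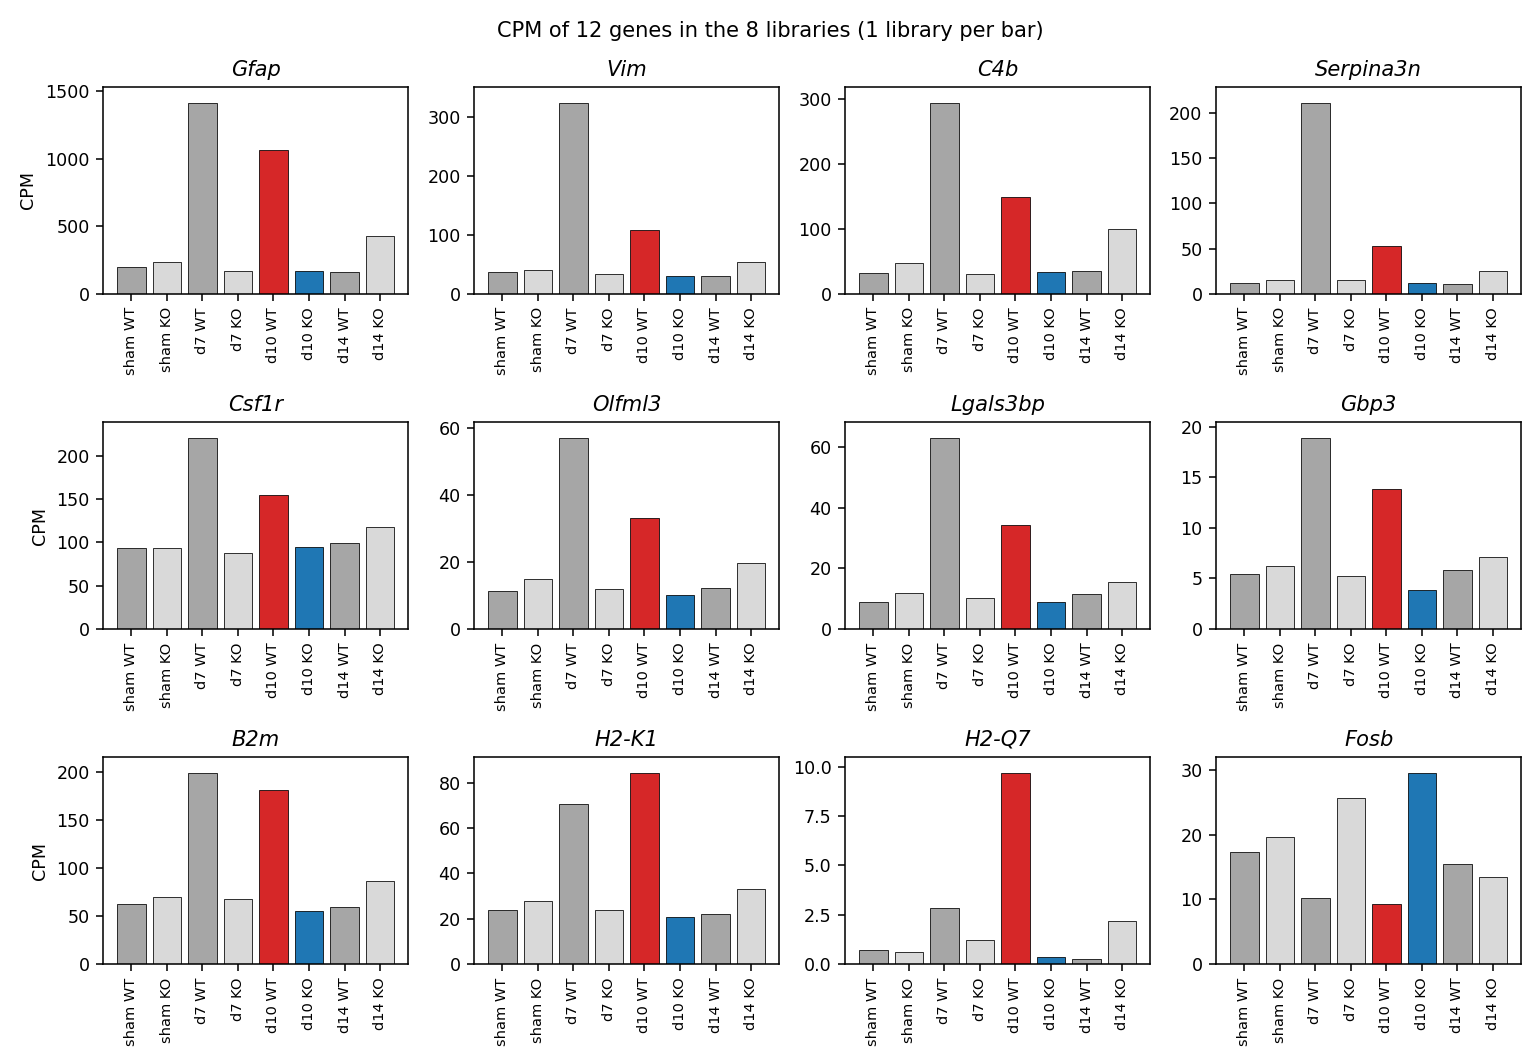
Bars give CPM (linear axis from 0) of 12 genes in each of the 8 libraries, 1 library per bar with no error bar, with day 10 in red (label WT) and blue (label TRPA1-KO). For *Gfap*, *Vim*, *C4b*, and *Serpina3n* the red bar is below day 7 of the same label, for *H2-K1* and *H2-Q7* it is the tallest, and for *Fosb* it is the lowest.

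Other genes of reactive astrocytes were mostly higher, and none was lower by at least 1 log2 unit. Of 35 listed, 30 were kept. To any extent 24 were higher, against 49.7% of all genes, and 12 by at least 1 log2 unit, against 1.36%. The list median was 0.68 (9 of 25 and 0.58 with at least 1 CPM in both libraries). *Serpina3n*, a secreted protease inhibitor and a broad marker of reactive astrocytes, was at 11.97 and 14.8 CPM in the sham libraries, 212 and 14.7 CPM on day 7, 53.3 and 11.5 CPM on day 10, and 10.6 and 25.4 CPM on day 14, a day 10 difference of 2.12. *Ggta1*, which adds galactose to cell surface sugars, differed by 1.53 (12.1 against 3.52 CPM), and *Osmr*, the receptor of oncostatin M, by 1.46 (8.82 against 2.56 CPM). *H2-D1* and *Aspg*, an asparaginase, were the 2 members past the range of the other libraries. *Fkbp5*, a steroid-responsive chaperone, was lower at 20.04 against 28.4 CPM, as was *Clcf1*, a cytokine of the LIF family, at 1.01 against 2.14 CPM. *Lcn2* (lipocalin 2, another secreted marker) was at 0.504 against 0 CPM on day 10 after 9.34 CPM in the day 7 library labelled WT. It was named after its values were seen. The listed genes thus ran from 2.12 (*Serpina3n*) to -0.64 (*Clcf1*) in log2 units among those kept.

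Genes of resting astrocyte function differed by less than 1 log2 unit with 1 exception. Of 16 kept, 14 (87.5%) were higher to any extent, against 49.7% of all genes, with a median of 0.18. By at least 1 log2 unit 1 (6.25%) was higher, against 1.36% of all genes. That was *Aqp4*, the water channel of astrocyte endfeet, at 109 and 88.3 CPM in the sham libraries, 155 and 88.8 CPM on day 7, 188 and 85.6 CPM on day 10, and 80.4 and 114 CPM on day 14. The day 10 library labelled WT had the highest *Aqp4* of all 8, and the difference of 1.12 was larger than the range of 0.94 over the other 6. The glutamate transporters *Slc1a2* and *Slc1a3* stood at 2968 against 2898 CPM and 501 against 464 CPM, and *Glul*, which makes glutamine, at 1528 against 1501 CPM. *Aldh1l1*, a folate enzyme used as a general astrocyte marker, was at 83.3 against 51.7 CPM, a difference of 0.68. The summed level of the 16 genes was 7485 against 6935 CPM, within the 6910 to 8039 CPM of the other libraries. The largest of these differences, that of *Aqp4*, was below the 2.64 log2 units of *Gfap*.

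Homeostatic microglia genes were mostly higher in the library labelled WT, by smaller amounts than *Gfap* or *Vim*. Of 16 homeostatic microglia genes, 15 were higher to any extent against 49.7% of all genes. By at least 1 log2 unit 5 were higher, against 1.36% of all genes, and the median was 0.68. *Csf1r*, the receptor that keeps microglia alive, was at 93.3 and 93.5 CPM in the sham libraries, 221 and 87.1 CPM on day 7, 154 and 95.0 CPM on day 10, and 99.1 and 117 CPM on day 14. That is a day 10 difference of 0.69 log2 units, or 1.62-fold (95% interval 1.49 to 1.77) in CPM. *P2ry12*, the purine receptor of surveying microglia, was at 45.6 against 28.5 CPM, and *Cx3cr1*, the fractalkine receptor, at 65.3 against 47.4 CPM. Those differences were 0.66 and 0.45 log2 units. *Olfml3*, a secreted microglial protein, differed most at 1.62 (33.1 against 10.1 CPM). *Gpr34*, a lipid receptor, was the only member past the range of the other libraries, at 1.20 (22.8 against 9.40 CPM). The day 10 library labelled WT ranked first or second of 8 for 13 of the 16, which holds for 26.8% of all genes. For none of the 16 was it above the day 7 library of the same label, which it exceeded for 49% of all genes.

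Disease-associated microglia genes were higher in 23 of 23, with a median of 0.84 and 6 past 1 log2 unit. Over all genes 49.7% were higher and 1.36% passed 1. With at least 1 CPM in both libraries 18 genes remained, 3 passed 1, and the median was 0.51. *Clec7a*, a receptor for fungal sugars and an early sign of this state, was at 0.469 and 0 CPM in the sham libraries, 9.60 and 0.223 CPM on day 7, 5.42 and 0.107 CPM on day 10, and 0 and 1.98 CPM on day 14. With 1 read in the library labelled TRPA1-KO its fold is poorly bounded, and its day 10 difference was 2.54 log2 units. *Cst7*, a protease inhibitor, differed by 1.95 (3.28 against 0.107 CPM) and *Cd52*, a small surface glycoprotein, by 1.85 (4.16 against 0.427 CPM). Among abundant members, *Ctsd*, a lysosomal protease, differed by 0.95 (509.5 against 264 CPM), while *Apoe*, the lipid carrier, differed by 0.10 (987 against 924 CPM). *Spp1* (osteopontin), named after its values were seen, was at 5.80 against 5.02 CPM although the day 7 library labelled WT held 436 CPM. *Trem2*, the lipid receptor on which the state depends, was at 20.2 against 10.8 CPM, also named after its values were seen. The sham libraries held 3.99 and 4.89 CPM of *Spp1*.

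Complement genes had a higher list median, 1.14. Of 10 kept members, 10 were higher and 7 passed 1 log2 unit, against 49.7% and 1.36% of all genes. With at least 1 CPM in both libraries, 5 of 8 passed 1 and the median was 1.11. *C4b*, a component that astrocytes make, was at 31.8 and 47.4 CPM in the sham libraries, 295 and 29.8 CPM on day 7, 149 and 33.3 CPM on day 10, and 34.2 and 99.3 CPM on day 14. Its day 10 difference was 2.13, and reads of its paralog *C4a* may be split with it. *C1qa*, *C1qb*, and *C1qc*, the 3 chains of the starter C1q that microglia make, were at 62.3 against 27.5 CPM, 56.8 against 30.0 CPM, and 51.3 against 25.6 CPM. Their differences of 1.15, 0.90, and 0.97 were close to each other. *Itgb2*, the shared beta chain of leukocyte integrins, differed by 1.68 (12.5 against 3.20 CPM) and *C3ar1*, a receptor of a C3 fragment, by 1.46 (4.41 against 0.961 CPM). *C3* itself was low, at 1.76 against 0.214 CPM. For all 10 genes the day 10 library labelled WT was second only to day 7 of the same label.

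Interferon genes were higher without reads of the main ligands. *Ifnb1* and *Ifng* had 0 CPM in both libraries, which allows up to 0.378 and 0.320 CPM. Receptor chains and kinases had 0 of 7 kept members past 1 log2 unit and a median of 0.19. *Ifnar1* was at 57.3 against 57.3 CPM, *Jak1* at 202 against 177 CPM, and *Ifngr1*, a chain of the interferon gamma receptor, at 17.3 against 9.72 CPM.

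Of 41 type I interferon-stimulated genes, 37 were kept, with a median of 0.70. Of those, 35 were higher and 12 passed 1 log2 unit, against 49.7% and 1.36% of all genes. With at least 1 CPM in both libraries, 9 of 30 passed 1 and the median was 0.69. *Lgals3bp*, a secreted scavenger receptor, was at 8.84 and 11.9 CPM in the sham libraries, 63.1 and 10.2 CPM on day 7, 34.3 and 8.97 CPM on day 10, and 11.3 and 15.5 CPM on day 14, a day 10 difference of 1.82 or 3.82-fold (95% interval 2.98 to 4.94) in CPM. *Oasl2*, an antiviral synthetase relative, differed by 1.69 (10.5 against 2.56 CPM), *Ifit1*, which binds foreign RNA caps, by 1.65 (6.18 against 1.28 CPM), and *Bst2*, which tethers virions, by 1.49 (7.81 against 2.14 CPM). The signalling factor *Stat2* was at 48.4 against 35.6 CPM, and *Ifi27* at 31.0 against 19.6 CPM. *Cmpk2*, a nucleotide kinase, stood at 25.1 against 24.0 CPM, a difference of 0.06. None of the 37 passed the range of the other libraries, and in none was day 10 above day 7 with the label WT. *Isg15*, a small modifier protein whose window holds 3 ISRE matches, was at 1.89 against 1.07 CPM on day 10 after 6.05 CPM on day 7, and was named after its values were seen. Among the 27 members with a window, the median difference was 0.73 with the ISRE letters and 0.58 without them, and it was 0.67 with the GAS letters and 0.73 without.

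The interferon gamma GTPases and their partners had a median of 0.99. Of 16 kept members, 16 were higher and 8 passed 1 log2 unit, against 49.7% and 1.36% of all genes. With at least 1 CPM in both libraries, 7 of 14 passed 1 and the median was 1.02. *Gbp6* differed by 1.98 (10.1 against 1.82 CPM), *Gbp3* by 1.62 (13.9 against 3.84 CPM), and *Gbp7* by 1.26 (11.6 against 4.27 CPM). These are guanylate-binding proteins, large GTPases that attack the vacuoles of microbes. *Tgtp2*, of the related immunity-related GTPases, was at 3.05 and 0.959 CPM in the sham libraries, 3.29 and 2.23 CPM on day 7, 7.69 and 2.24 CPM on day 10, and 2.41 and 3.23 CPM on day 14. It was highest of all 8 libraries on day 10 and passed the range of the other 6, as did its near-identical neighbour *Tgtp1*, so their reads may be split. The sham pair had also differed for *Tgtp2*, by 1.05 log2 units. *Irf1*, the transcription factor of this branch, differed by 0.13 (6.30 against 5.66 CPM). With the ISRE letters the median was 1.15 over 10 members, and without them 0.26 over 2. With the GAS letters it was 1.21 over 7 members, and without them 1.03 over 5. Among MHC class I genes with a window the order was the other way, 0.22 with the ISRE letters over 3 genes and 1.36 without them over 10.

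MHC class I products display peptides to T cells. Of the 15 genes kept, 9 passed 1 log2 unit, against 1.36% of all genes, and the median was 1.19. The range of the other 6 libraries was also passed by 6, against 0.477% of all genes. Among those 6, *H2-Q6*, *H2-Q7*, and *Nlrc5* were under 1 CPM in the library labelled TRPA1-KO. They were kept only through the library where they were high, and only *H2-K1*, *H2-D1*, and *H2-Q4* had at least 1 CPM in both. Of the 11 with at least 1 CPM in both libraries, 6 passed 1 log2 unit and the median was 1.11. *H2-K1* (chr17:33996012-34000619), a classical heavy chain, was at 23.7 and 27.9 CPM in the sham libraries, 70.4 and 23.6 CPM on day 7, 84.4 and 20.5 CPM on day 10, and 22.1 and 32.9 CPM on day 14. *H2-D1*, the other classical heavy chain, was at 39.7 and 36.5 CPM in the sham libraries, 104 and 38.6 CPM on day 7, 132 and 35.4 CPM on day 10, and 37.6 and 50.04 CPM on day 14. The day 10 library labelled WT was the highest of 8 for both, above that of day 7, and the differences were 1.99 and 1.87 log2 units. Their light chain, *B2m*, was at 62.4 and 69.8 CPM in the sham libraries, 199 and 67.3 CPM on day 7, 181 and 55.0 CPM on day 10, and 59.4 and 86.6 CPM on day 14, a difference of 1.70. *Nlrc5*, the transactivator of class I genes, differed by 2.17 (5.42 against 0.427 CPM).

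The largest class I differences were those of *H2-Q7*, *H2-Q9*, *H2-Q6*, and *H2-Q5*, genes of the Q region, which encodes nonclassical chains. In the library labelled TRPA1-KO, *H2-Q7* had 3 reads, *H2-Q6* 4, and *H2-Q5* 1, so their folds are poorly bounded. *H2-Q7* (chr17:35439140-35443773) was at 0.704 and 0.575 CPM in the sham libraries, 2.85 and 1.22 CPM on day 7, 9.70 and 0.32 CPM on day 10, and 0.219 and 2.18 CPM on day 14, and *H2-Q9* carried the same value in every library, so their reads cannot be told apart. Its day 10 difference of 3.02 was larger than the range of 1.66 over the other 6 libraries. *H2-Q6* differed by 2.69 (8.19 against 0.427 CPM) and *H2-Q5* by 2.36 (4.66 against 0.107 CPM). *H2-Q4*, also of this region, differed by 1.53 (13.9 against 4.16 CPM), less than the 1.99 of *H2-K1*. On day 7 the label difference had been 0.39 for *H2-Q6*, 0.14 for *H2-Q5*, 0.79 for *H2-Q7*, and 1.22 for *H2-Q4*. These genes are close copies of each other, and how the counting shared their reads is not given in the sources used here. Other class I genes were closer to equal: *H2-T23* was at 26.5 against 26.3 CPM, *H2-T22* at 27.5 against 23.4 CPM, and *Tapbp*, the chaperone that loads peptides, at 31.3 against 26.4 CPM. Of 25 kept genes of chromosome 17 with an H2 symbol, 12 were higher and 1, *H2-M5*, was lower by at least 1 log2 unit. Over all genes the shares were 1.36% and 0.323%. Among the 12, only *H2-K1*, *H2-D1*, and *H2-Q4* had at least 1 CPM in both libraries. The others, with *H2-Q7* and *H2-Q9* counted separately, were kept only through the library where they were high. The count of 12 is therefore no support for a difference of these genes as a set.

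MHC class II genes were low, and 5 of the 7 kept were higher by at least 1 log2 unit, with a median of 1.25. All 5 were under 1 CPM in the library labelled TRPA1-KO and were kept only through the library where they were high, so this count and median are no support for a difference of the list. The 2 with at least 1 CPM in both, *H2-DMa* and *Ciita*, had a median of 0.24 and neither passed 1. *Cd74*, the invariant chain, was at 1.10 and 0.671 CPM in the sham libraries, 5.96 and 1.22 CPM on day 7, 8.95 and 0.961 CPM on day 10, and 0.768 and 1.56 CPM on day 14, and its day 10 difference of 2.34 passed the range of 2.06. *H2-Aa* differed by 1.90 (3.53 against 0.214 CPM) and *H2-Eb1* by 1.67 (2.52 against 0.107 CPM), each on 2 reads or fewer in the library labelled TRPA1-KO. *H2-DMa*, which helps load peptides, was at 9.45 against 6.51 CPM, and *Ciita*, the class II transactivator, at 3.53 against 3.52 CPM.

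Lymphocyte markers were sparse, and most had their highest value in the day 10 library labelled WT. Of 9 listed, 2 were kept. *Ccl5*, a chemokine of T cells and macrophages, passed the range at 2.02 against 0.427 CPM, where the other 6 libraries had 0 to 0.312 CPM. *Cd3d*, *Cd3g*, and *Cd3e*, chains of the T cell receptor complex, were at 0.504, 0.378, and 0.252 CPM against 0 CPM each, and no other library exceeded 0.178 CPM for any of them. *Cd8a*, the coreceptor of cytotoxic T cells, was at 0.756 CPM against 0, and *Nkg7*, of cytotoxic granules, at 0.504 CPM against 0. These are 6 reads or fewer per gene. The library was thus the highest of 8 for 7 of the 9 markers, and *Ptprcap* (0.504 against 0.427 CPM) and *Cd4* (9.33 against 12.6 CPM) were the exceptions. Of all kept genes 12% were highest there. However, 7 of the 9 markers were not kept, and *Ccl5* was kept only through this library. The count is therefore no support for a difference of the list. The summed level of the list was 14.7 against 13.45 CPM, mostly *Cd4*, with 8.68 to 23.5 CPM in the other libraries. The part of lymphocytes in the MHC and interferon differences was not tested.

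No neutrophil gene was kept, with a summed level of 0.252 against 0.214 CPM over 5 genes and *Ly6g* at 0 CPM in both. Border macrophage genes were lower in 2 of 2 kept members, with *Mrc1*, a mannose receptor, at 2.77 against 2.99 CPM. The summed level of that list was 5.80 against 6.09 CPM, within 5.45 to 8.95 CPM in the other libraries.

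Cytokines and receptors of the LIF family signal through STAT3, a factor that astrocytes need to become reactive. Of 13 listed genes, 10 were kept, with a median of 0.25. By at least 1 log2 unit 3 were higher, against 1.36% of all genes, or 1 of 8 with at least 1 CPM in both libraries. Apart from *Osmr*, these were *Bcl3*, a nuclear cofactor, at 1.64 against 0.107 CPM, and *Cntf*, a cytokine of the LIF family, at 2.02 against 0.427 CPM, on a handful of reads. *Stat3* was at 58.1 against 53.5 CPM, *Il6st*, the shared receptor chain, at 105 against 82.0 CPM, and *Lifr* at 43.9 against 38.5 CPM. *Lif* was under 1 CPM in both libraries, at 0.504 against 0.534 CPM, and was named after its values were seen. Chemokines were sparse: 8 of 17 were kept, of which 4 had at least 1 CPM in both libraries and none of those passed 1, with *Ccl3* and *Cxcl10* both at 1.26 against 0.107 CPM and *Cx3cl1*, the neuronal fractalkine, at 593 against 673 CPM.

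Side by side, the medians of the filament, microglial, interferon, and MHC class I lists differed in the same direction on day 10 but not to the same extent. The filament genes did not move as a list, since *Gfap* and *Vim* were higher while *Nes* (0.12) and *Synm* (-0.17) were close to equal. *Gfap* alone, at 1060.0 against 169 CPM, makes up most of the filament sum given below. The list medians ran from 0.68 for homeostatic microglia and 0.70 for type I interferon-stimulated genes to 0.99 for interferon gamma GTPases and 1.19 for MHC class I, and were 0.69, 1.02, and 1.11 for the last 3 when at least 1 CPM was required in both libraries. Several genes belong to more than 1 list (19 of 409), such as *B2m* and *H2-D1*, so the lists are not separate evidence. Summed over the list, the filament genes stood at 1237 against 272 CPM, homeostatic microglia at 708 against 425 CPM, type I interferon-stimulated genes at 421 against 257 CPM, and MHC class I at 567 against 228 CPM. For filaments, homeostatic microglia, and MHC class I the library labelled TRPA1-KO lay below both shams, and for the interferon-stimulated genes it lay above them (255 and 251 CPM). The order of the highest libraries for the filaments was day 7 labelled WT (1820 CPM), day 10 labelled WT, and day 14 labelled TRPA1-KO (554 CPM). Homeostatic microglia (1157 and 577 CPM in those other 2) and interferon-stimulated genes (648 and 314 CPM) followed the same order.

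**Figure D3:**
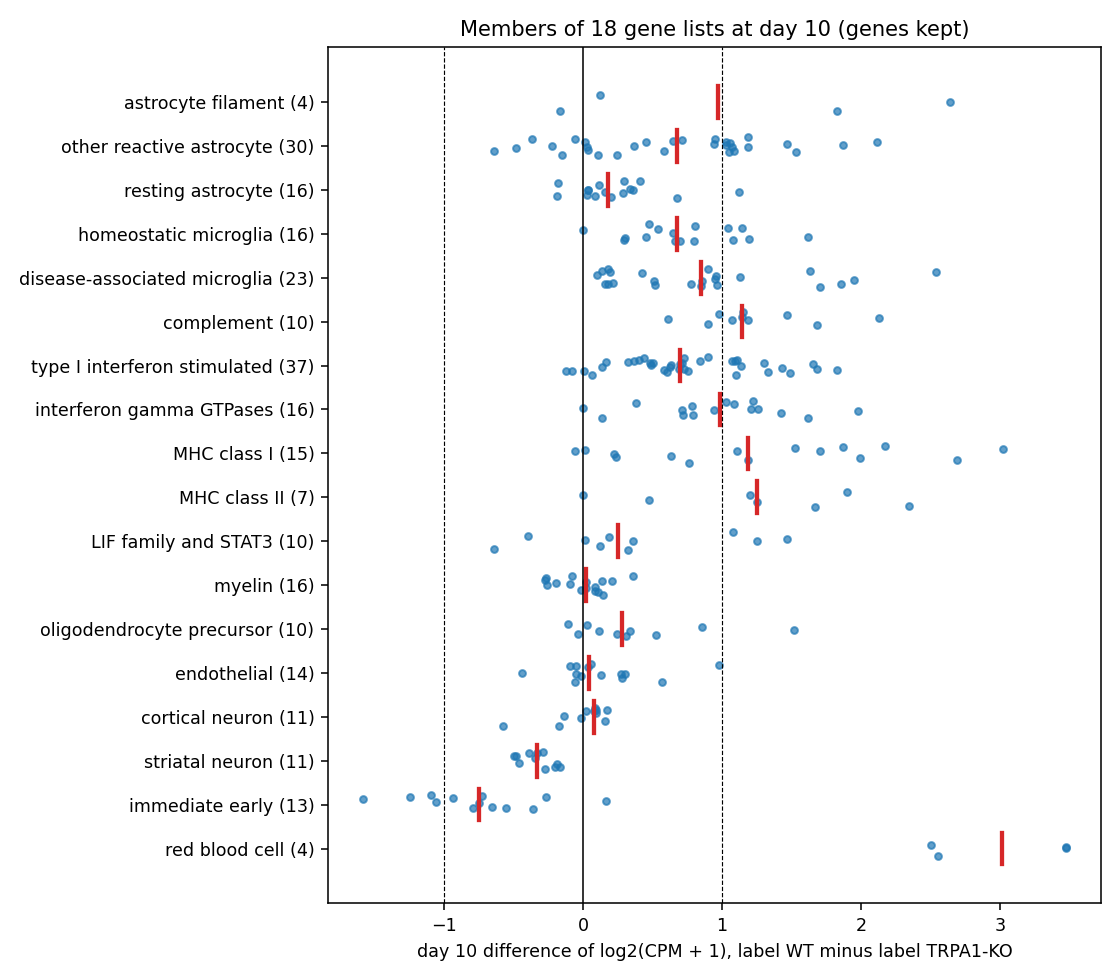
Each point is a kept gene of 1 of 18 lists, placed on the x axis by its day 10 difference of log2(CPM + 1), label WT minus label TRPA1-KO, with the number kept in parentheses. Red bars give list medians, the solid line the median of all kept genes, and the dashed lines differences of -1 and 1. Filament, reactive astrocyte, microglial, complement, interferon, and MHC class I medians lie between 0.68 and 1.19, that of MHC class II is 1.25 on 5 genes under 1 CPM in 1 library, the myelin median is 0.02, and the immediate early median is -0.75.

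The label difference of the same genes changed sign across the pairs. The filament median was -0.15 in the sham pair, 2.29 on day 7, 0.97 on day 10, and -0.48 on day 14. Type I interferon-stimulated genes gave 0.11, 1.53, 0.70, and -0.16, and homeostatic microglia gave -0.03, 1.25, 0.68, and -0.36. MHC class I gave -0.11, 1.07, 1.19, and -0.40 and was the only one of these lists that was larger on day 10 than on day 7. Of the 211 genes higher on day 10, 131 (62.1%) were also higher by at least 1 on day 7, against 4.03% of all kept genes, and they made up 16.5% of the day 7 genes. On day 14, 151 of the 211 differed in the opposite direction, 21 of them by at least 1, while of all kept genes 50.9% were lower and 0.452% by at least 1. With 1 library per label and day, day, animal, and library cannot be told apart.

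**Figure D4:**
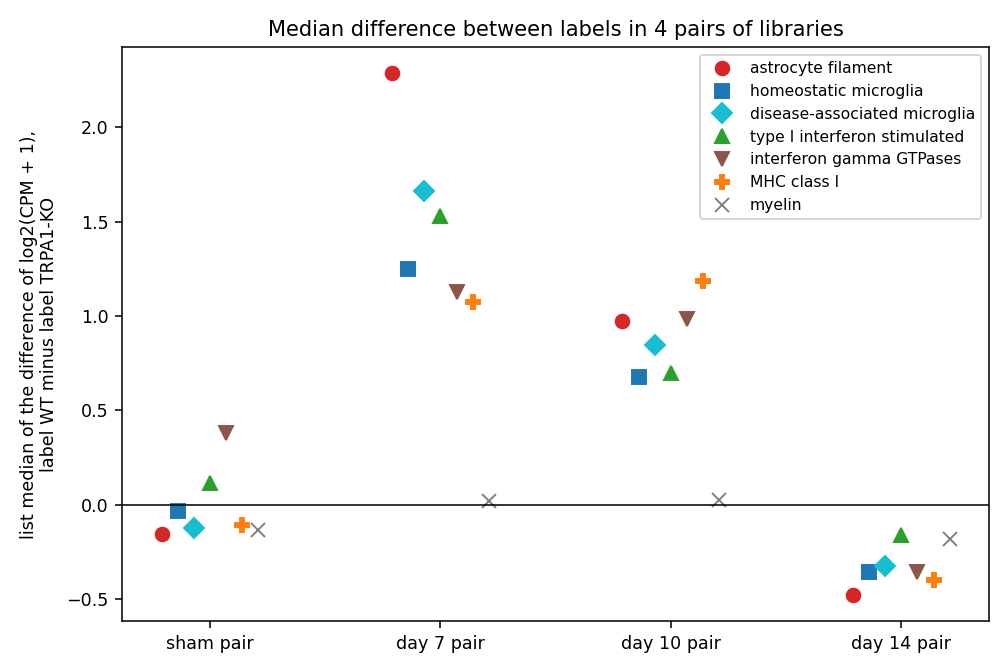
The y axis gives list medians of the difference of log2(CPM + 1), label WT minus label TRPA1-KO, and the x axis the 4 pairs of libraries, over the genes kept on day 10. Filament, microglial, interferon, and MHC class I medians are above 0 on days 7 and 10 and below 0 on day 14, and the myelin median is between -0.18 and 0.02.

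Which genes day 10 kept or lost relative to day 7 was read within the label WT, from the 2 libraries alone. The day 10 library exceeded the day 7 library for 0 of 37 type I interferon-stimulated genes, 0 of 16 homeostatic microglia genes, 0 of 10 complement genes, and 1 of 23 disease-associated genes. It did so for 5 of 15 MHC class I genes, 5 of 16 interferon gamma GTPases and partners, and 3 of 7 MHC class II genes. Those shares were 33.3%, 31.25%, and 42.9%, and none exceeded the 49% of all kept genes. Members under 1 CPM in the day 10 library labelled TRPA1-KO, such as *Cd74* and *H2-Q7*, were kept only through the day 10 library labelled WT. That filter favours day 10 in this comparison. The day 7 library was the highest of 8 for 21.1% of all genes and the day 10 library for 12%, and among MHC class I genes these were 10 and 5 of 15. Of 10 cell cycle genes 0 passed 1 log2 unit on day 10, with *Mki67*, a marker of dividing cells, at 6.68 against 6.51 CPM and *Top2a*, a DNA topoisomerase of dividing cells, at 6.68 against 5.45 CPM, whereas day 7 had 24.4 against 4.45 CPM of *Mki67*. The list median was -0.23 on day 10 and 1.44 on day 7.

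**Figure D5:**
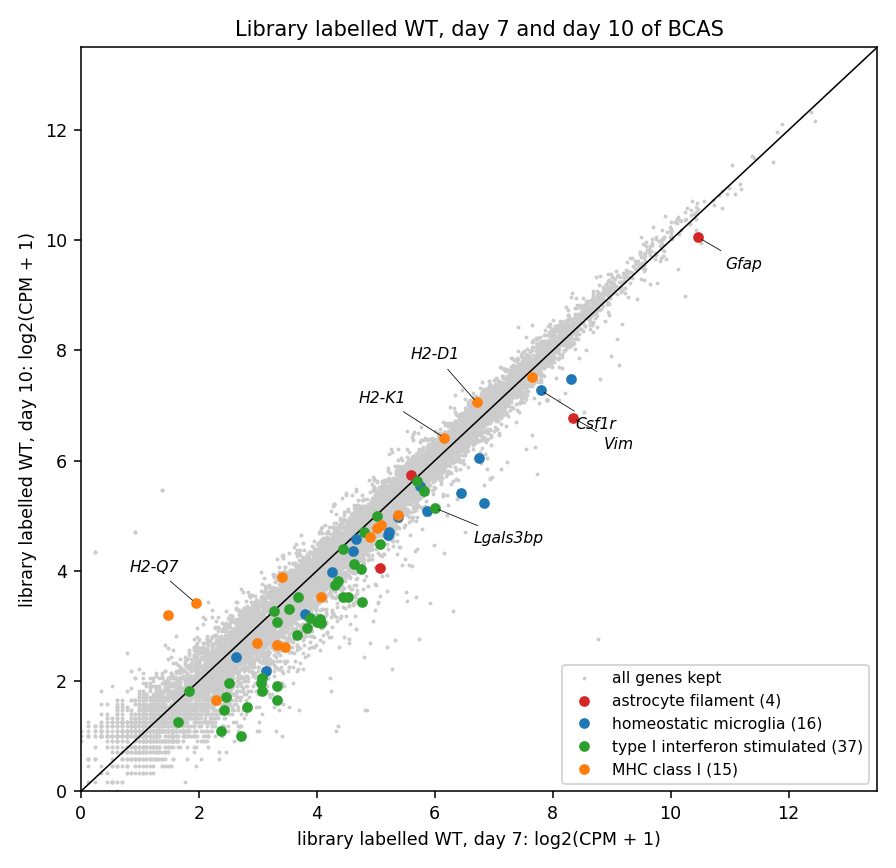
Each point is 1 of the 15499 kept genes, with log2(CPM + 1) in the library labelled WT of day 7 on the x axis and of day 10 on the y axis, and the line marks equal values. Type I interferon-stimulated and homeostatic microglia genes lie below the line, and *H2-K1*, *H2-D1*, and *H2-Q7* lie above it.

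The myelin list had 0 of 16 members past 1 log2 unit in either direction and a median of 0.02. Precursors and newly formed oligodendrocytes had a median of 0.28. There, *Bmp4*, a growth factor of newly formed oligodendrocytes, passed the range at 5.55 against 1.28 CPM, and *Gpr17*, a receptor of the same stage, was at 87.7 and 88.4 CPM in the sham libraries, 90.8 and 68.0 CPM on day 7, 138 and 75.8 CPM on day 10, and 81.4 and 71.5 CPM on day 14. The day 10 library labelled WT had the highest *Gpr17* of the 8, with a difference of 0.86.

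Endothelial genes had a median of 0.04 and 0 of 14 members past 1 log2 unit, with *Vwf*, the clotting factor carrier, nearest at 0.97 (38.3 against 19.0 CPM). Pericyte and smooth muscle genes had a median of 0.09 over 11 members, with 8 higher and 3 lower to any extent. Only *Myh11*, the myosin of smooth muscle, passed 1 log2 unit. It was lower at 2.14 against 7.47 CPM, a difference of -1.43 past the range of the other libraries. *Tagln*, also of this list, was higher at 6.43 against 3.52 CPM. Hemoglobin genes were much higher in the library labelled WT. *Hba-a1* stood at 22.9 and 75.2 CPM in the sham libraries, 1.60 and 0.334 CPM on day 7, 43.4 and 2.99 CPM on day 10, and 1.10 and 27.2 CPM on day 14. The hemoglobin list summed to 132 against 12.1 CPM, and the other 6 libraries held from 1.11 to 202 CPM. The highest hemoglobin, 202 CPM, was in the sham library labelled TRPA1-KO. The part of residual blood in the immune differences was not tested.

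Neuronal genes mark neighbouring tissue. Striatal projection neuron genes were lower in 11 of 11 members, while 49.7% of all genes were higher, with a median of -0.33 and none past 1 log2 unit. The same direction was seen in the sham pair (median -0.40) and on day 14 (-0.42), with 0 of 11 higher in each. On day 7 the median was -0.09, with 2 of 11 higher. *Penk*, an opioid precursor, was at 149.6 against 207 CPM and *Adora2a*, an adenosine receptor, at 42.3 against 56.0 CPM. Their summed level of 1700.2 against 2098 CPM lay within the 1224 to 2990.1 CPM of the other libraries. Cortical excitatory genes had a median of 0.07, with *Nrgn*, a calmodulin-binding protein of dendrites, lower at 1044 against 1557 CPM. Whether unequal neighbouring tissue took part in the glial differences was not tested.

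The clearest group of lower genes was that of the immediate early genes, which neurons switch on within minutes of activity. Of 13 kept, 12 were lower to any extent, while 49.7% of all genes were higher. By at least 1 log2 unit 4 were lower, against 0.323% of all genes, and the median was -0.75. Against the mean of the sham libraries, the list median was -0.11 in the library labelled WT and 0.55 in the one labelled TRPA1-KO. The day 7 pair differed more, with a median of -1.03 and 7 of 13 lower by at least 1, against 46 of all 15499 kept genes. *Fosb*, a subunit of the factor AP-1, was at 17.3 and 19.6 CPM in the sham libraries, 10.1 and 25.7 CPM on day 7, 9.20 and 29.6 CPM on day 10, and 15.5 and 13.4 CPM on day 14. It was the lowest of 8 in the library labelled WT and the highest of 8 in the one labelled TRPA1-KO, a 3.21-fold (95% interval 2.48 to 4.22) difference in CPM in favour of the latter. *Fos* itself was at 26.6 against 56.6 CPM, *Egr2* at 10.1 against 25.3 CPM, *Egr4* at 26.8 against 58.4 CPM, and *Arc*, a synaptic protein, at 307 against 511 CPM. *Fosl2*, another AP-1 subunit, was at 22.7 against 58.1 CPM and passed the range as well. The summed level over the list was 1047 against 1681 CPM, and the other libraries ran from 712 to 1838 CPM, highest on day 7 with the label TRPA1-KO. Glucocorticoid-induced genes had a median of -0.30, with *Plin4*, a coat protein of lipid droplets, at 35.2 and 61.6 CPM in the sham libraries, 37.9 and 7.01 CPM on day 7, 3.65 and 10.1 CPM on day 10, and 46.2 and 36.1 CPM on day 14. Both day 10 libraries and the day 7 library labelled TRPA1-KO were low for *Plin4*. Clock genes (median -0.19), hypoxia genes (-0.04), and cholesterol synthesis genes (-0.15) had no member past 1 log2 unit. The remaining lists gave medians of 0.67 (fibroblast), 0.51 (metallothionein), -0.05 (interneuron), -0.17 (ependymal), -0.51 (choroid plexus), and 0.02 (sex-linked). Only 1 of 7 fibroblast genes, *Col3a1* (3.15 against 0.854 CPM), passed 1, against 1.36% of all genes. It was kept only through the library where it was high. With at least 1 CPM in both libraries 4 fibroblast genes remained, none passed 1, and the median was 0.39.

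By size alone, the lower genes past the range were led by *Snord55*, a small nucleolar RNA, at 0.504 against 7.58 CPM, where the other 6 libraries had 0.439 to 1.002 CPM. *Gm3002* followed at 1.26 against 7.26 CPM. Small nucleolar RNAs lack a poly(A) tail and lie in introns of host genes. The others by this rule were *2810454H06Rik*, *C730002L08Rik*, *Ptprv*, *Rnf17*, *Gm3500*, *Cartpt*, and *Mir1893*, with differences from -1.37 to -1.27. Among the higher genes, *Ly6c2*, a surface antigen of monocytes and some T cells, was at 3.65 CPM against 0 CPM, at least 11.4-fold higher when 3 reads are taken for the 0. The double homeobox gene *Duxbl1*, which has 2 copies with the same values, was at 36.04 against 9.29 CPM.

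A last group differed between the labels in every pair, sham included. In 22 of the 211 higher genes (18 distinct sets of values) all 4 libraries labelled WT lay above all 4 labelled TRPA1-KO, and in 4 of the 50 lower genes all 4 lay below. Over all 15499 genes this held for 1.26% and 1.15%. The day 10 pair enters both the choice of the 211 and 50 genes and this rule, so their shares are raised by construction. By at least 1 log2 unit in every pair, 3 of the 211 and 0 of the 50 differed. None of these 26 genes was in a list described here. *Erdr1*, chosen here and below after the values were seen, was at 110.4 and 0.192 CPM in the sham libraries, 54.1 and 0.223 CPM on day 7, 68.8 and 0.32 CPM on day 10, and 59.7 and 0 CPM on day 14, the largest day 10 difference of all at 5.72. *Mid1* (chrX:169685199-169990798), which spans the pseudoautosomal boundary of the X chromosome, was at 27.4 and 6.71 CPM in the sham libraries, 18.1 and 4.34 CPM on day 7, 21.7 and 4.16 CPM on day 10, and 14.8 and 6.14 CPM on day 14, and *G530011O06Rik* (chrX:169975043-169978917), within *Mid1*, at 9.45 against 0 CPM. On chromosome 2, the zinc finger gene *Zfp966* (chr2:175918283-175931100) was at 93.3 and 56.3 CPM in the sham libraries, 97.3 and 48.3 CPM on day 7, 87.8 and 20.2 CPM on day 10, and 70.2 and 11.7 CPM on day 14, and *Zfp967* carried the same values. *Hjurp* (chr1:88258856-88277644), a histone chaperone of centromeres, was at 87.8 and 30.2 CPM in the sham libraries, 103 and 27.2 CPM on day 7, 88.8 and 26.1 CPM on day 10, and 80.8 and 50.9 CPM on day 14. In contrast, *Gfap*, *H2-K1*, and *Lgals3bp* differed between the sham libraries by -0.23, -0.23, and -0.39 log2 units.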

How the data were processed

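RNA-seq was performed on the corpus callosum in 8 libraries, 1 per group, of which the 2 of day 10 after BCAS are compared here. Polyadenylated RNA was selected, libraries were prepared with the NEBNext Ultra kit, which does not mark strand, and sequenced on a NovaSeq instrument. Per the labels and the study's methods, the authors mapped reads to GRCm38 (mm10) with HISAT2, counted them per gene with featureCounts of Subread, and normalized them with edgeR. The annotation, the counting settings, and any filter are not given in the sources used here. The deposited values are a signal: counts divided by each library's effective size and scaled to CPM by the authors, not on a log scale. Dividing each column by its smallest step gave whole reads for 100% of values (tolerance 1e-06 reads). They came to 7896071 to 12952093 per library.

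The difference of log2(CPM + 1), label WT minus label TRPA1-KO, was computed over genes with at least 1 CPM in either day 10 library. With 1 library per label there is no residual degree of freedom, so no test, p-value, or count model was used. A gene was called at a difference of 1, and, by a second rule, when it also exceeded the range of the other 6 libraries. Sums over a list include all its genes, and medians the kept genes. Intervals are exact (Poisson for CPM, Clopper-Pearson for ratios, 95%) and cover counting error only. Genes with 0 reads are set at 3 reads for a fold. Groups follow the deposited labels. The calling was tested on simulated data first.

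The genes compared and the 36 lists (409 genes) were chosen with earlier results of these data known. Named are, per direction, the 12 genes with the largest difference past the range, all filament genes, up to 4 genes of each other list by level and up to 4 by difference, and *Trpa1*. Besides those said in the text to be so, *H2-Q4*, *H2-T22*, *H2-M5*, *Tgtp1*, *Aspg*, *Ifnb1*, *Ifng*, and the T cell markers were named after their values were seen. Positions and promoter windows are from RefSeq GRCm38.p6 (25037 symbols matched). Some listed genes are counted but not reported here by name. MHC genes were added to the motif search, and list values over genes with at least 1 CPM in both libraries were added, after seeing the data. Python version 3.11.15, pandas version 2.3.3, SciPy version 1.17.1, R version 4.3.3, and DESeq2 version 1.42.0 (size factors only) were used. Alternatives were other pseudocounts, filters, scalings, and thresholds, and the range without each library in turn.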

Additional observations from a re-analysis of the deposited data

Results flagged for a closer look

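The label difference of 5 gene lists had the opposite sign in another pair of libraries. These differences between pairs were not tested, since each pair has 1 library per label. The median difference of the astrocyte filament genes was 0.97 on day 10, -0.15 in the sham pair, and -0.48 on day 14. That of the homeostatic microglia genes was 0.68 on day 10, -0.033 in the sham pair, and -0.36 on day 14. The disease-associated microglia genes gave 0.84 on day 10, -0.12 in the sham pair, and -0.33 on day 14. The type I interferon-stimulated genes gave 0.70 on day 10 and -0.16 on day 14, and the interferon gamma GTPases gave 0.99 and -0.36.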

How the results depend on the processing

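The count of genes past 1 log2 unit, 261, became 776 (539 higher, 237 lower) with a pseudocount of 0.1, 156 with at least 1 CPM in both libraries, and 1216 (804 higher, 412 lower) at a threshold of 1.5-fold. The count past the range of the other libraries, 106, became 340 (198 higher, 142 lower), 51, and 538 (298 higher, 240 lower) under the same alternatives. With 1 library left out of that range it was 108 to 215, the highest without the day 7 library labelled WT. The median of disease-associated microglia genes was 0.51 with at least 1 CPM in both libraries, in place of 0.84. The cause of these shifts was not tested, beyond the fewer genes or looser threshold by construction. The other 37 values stayed within 1.5 times of the value reported, including all those under DESeq2 size factors and equal library medians, which shifted a library by at most 0.034 log2 units. No paired analysis was possible because the day 10 comparison has 1 library on each side. A label effect over the 4 pairs, blocked by pair, would mix days and sham, and was not run. Depth limits genes near 3 reads, such as *Trpa1* and the MHC class II genes, and 1 library per label limits all results to these libraries.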

Other observations

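Genes in none of the lists, chosen after their values were seen, included more of the myeloid kind. *Ctss*, a lysosomal protease of microglia, was at 50.5 and 55.4 CPM in the sham libraries, 182 and 46.0 CPM on day 7, 133 and 49.0 CPM on day 10, and 54.0 and 78.3 CPM on day 14. *Mpeg1*, a pore-forming protein of macrophages, was at 74.7 against 27.4 CPM, and *Ptprc* (CD45), the common leukocyte antigen, at 10.8 against 2.88 CPM. *Irf8*, a factor that microglia need, stood at 13.1 against 4.91 CPM, and *Cd180*, a receptor related to the Toll-like family, at 9.70 against 2.03 CPM. For each of these 5 genes the day 7 library labelled WT was higher and the day 10 library labelled WT was next.

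Other such genes were highest on day 10 instead. *Lag3*, an inhibitory receptor that binds MHC class II, was at 5.55 and 4.51 CPM in the sham libraries, 12.7 and 4.90 CPM on day 7, 15.8 and 5.23 CPM on day 10, and 5.49 and 9.05 CPM on day 14. *C4a*, the paralog of *C4b*, was at 5.24 and 6.71 CPM in the sham libraries, 13.52 and 7.68 CPM on day 7, 19.4 and 7.58 CPM on day 10, and 8.01 and 12.9 CPM on day 14, and *H2-L*, whose reads may be shared with *H2-D1*, at 111 against 30.1 CPM. By contrast, *A2m*, a protease inhibitor of plasma and reactive glia, was at 9.96 against 1.71 CPM on day 10 but 45.2 CPM on day 7 with the label WT.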
